A study of Mus musculus with 127 samples.

Results

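Lentiviral constructs were compared in single cultured striatal neurons: 25Q-Htt, which carries human HTT exon 1 with 25 glutamines fused to GFP, and an empty vector, which lacks the inserted cassette and was the overall control construct of the study. The cells were taken by their labels alone: 25Q-Htt cells 15 to 29 and empty vector cells 1 to 9, all of batch 3. They are 24 of the 127 cells held here, of which 113 were neurons and 14 were astrocytes. All 24 neurons came from the striatum of newborn (P0-P1) wild-type C57BL/6 mice, were infected with a lentivirus, were grown on small islands of cortical astrocytes and received vehicle (DMSO). After an electrical recording at day 15 in vitro, the content of each cell was drawn into the recording pipette and read as RNA, a procedure called Patch-seq. The labels name no promoter for the constructs and no animal or culture for a cell, so each group counts as 1 sample. No test between the constructs is possible, and every value below describes these cells. The human transgene and GFP were not analysed here, so the construct of a cell rests on its label.

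Most striatal neurons are GABAergic projection neurons. They make GABA with the enzymes Gad1 and Gad2 and divide into cells of the direct pathway, which carry the dopamine receptor Drd1 with the peptides Tac1 and Pdyn, and cells of the indirect pathway, which carry Drd2, the adenosine receptor Adora2a and the peptide Penk. Huntingtin is a large scaffold protein that binds molecular motors, endocytic proteins and transcription regulators, and its first exon encodes the polyglutamine tract that is expanded in Huntington's disease. A 25-glutamine tract lies in the normal range, so 25Q against empty vector asks how neurons that make a normal exon 1 fragment differ from neurons with no insert.

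Total counts per cell were 1388846, 4483060 and 6362918 (lowest, median and highest) in 25Q neurons, against 2215015, 5150586 and 6550355 in empty vector neurons, and 10532 to 14009 genes had a count in 25Q neurons, against 11285 to 13665 in empty vector neurons. The constructs were in separate stretches of library numbers of the batch: 25Q had libraries 15 to 21 (7 cells) and 42 to 49 (8 cells), and empty vector had 72 to 80. Library stretch and construct therefore cannot be told apart. The cells also stood apart in base composition. The 10% of genes with the most GC-rich transcripts (1016 genes at 57.2% GC or more) took 3.71 to 6.21% of the counts in 25Q neurons, against 6.33 to 8.95% in empty vector neurons, without overlap. Values with each gene centred on others of like GC content are therefore given for some genes and lists, among them the genes without overlap. Named genes whose direction or call the centring changed are listed below.

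The neurons of both constructs expressed the GABA enzymes. Gad1 had 381, 1958 and 11582 CPM in 25Q neurons, against 474, 2606 and 4779 CPM in empty vector neurons (lowest, median and highest), and the 25Q cell was higher in 46.7% of the cell pairs (each 25Q with each empty vector cell). Gad2 had 414, 1025 and 4275 CPM in 25Q neurons, against 523, 1785 and 2248 CPM in empty vector neurons, with 25Q higher in 37% of pairs. Every cell of both groups thus held at least 381 CPM of Gad1, and the groups overlapped over most of their range. Levels are CPM, counts scaled to the total of the cell, and differences are of log2(median CPM + 1), 25Q minus empty vector, which understates differences of low genes. The difference was -0.41 for Gad1 and -0.80 for Gad2. The vesicular GABA transporter Slc32a1 was low in both groups, with 0, 10.1 and 21.2 CPM in 25Q neurons, against 4.06, 12 and 44.7 CPM in empty vector neurons and a difference of -0.24, which turned to 0.77 when centred on GC content. Abat, which breaks GABA down, had 13.5, 347 and 936 CPM in 25Q neurons, against 30.9, 187 and 793 CPM in empty vector neurons, with a difference of 0.89 and 25Q higher in 71.9% of pairs.

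The label of striatal neuron was checked on marker genes. The summed level of 18 pan-neuronal markers was 5941, 12050 and 19907 CPM in 25Q neurons, against 10452, 12590 and 14619 CPM in empty vector neurons, and was at most 3077 CPM in the 14 astrocytes. The 32 markers of striatal projection neurons summed to 550.2, 1460.2 and 10919 CPM in 25Q and 581, 1669 and 2057 CPM in empty vector neurons. The 8 markers of excitatory neurons, among them the vesicular glutamate transporters, had a median of 0 in each group and at most 4.94 CPM in a 25Q and 1.31 CPM in an empty vector neuron. The 13 markers of striatal interneurons were uneven, with 0.732, 46.2 and 2098 CPM in 25Q and 2.09, 149.9 and 1874 CPM in empty vector neurons.

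Genes of the astrocyte marker list had counts in cells of both groups. Whether these counts came from astrocytes was not tested. The 22 astrocyte markers summed to 80.03, 1127 and 5409 CPM in 25Q neurons, against 59.8, 834.9 and 6016 CPM in empty vector neurons, and to 11763 CPM or more in each astrocyte. The members of this list differed in level. Gfap, Aqp4, Gja1 and Aldh1l1 all had medians below 1 CPM in both groups, and Gjb6 and Fgfr3 had medians of 0. Other members were clearly present in both groups. Medians in 25Q against empty vector neurons were 36.6 against 96.5 CPM for Slc1a2 and 40.4 against 56.3 CPM for Mlc1. For Vim they were 125 against 57.1 CPM. The medians of Apoe, Fabp7 and Glul were at least 14.1 CPM in both groups. Of 18 members of the list with enough counts, 7 were higher and 11 lower in 25Q. Clu had 0.244, 296 and 2942 CPM in 25Q neurons, against 0.329, 39.1 and 615 CPM in empty vector neurons. Sparcl1 had 0.244, 147 and 2551 CPM in 25Q neurons, against 0.233, 15.4 and 539 CPM in empty vector neurons. Clu and Sparcl1 were past 2-fold higher in 25Q, while Slc1a3 and Aldoc, at 1.27 against 9.05 CPM and 0.720 against 8.58 CPM (25Q against empty vector medians), were past 2-fold lower. The cells with at least 2377 CPM of these markers (10% of the astrocyte median) were 5 25Q cells and 1 empty vector cell. Without them the difference of Sparcl1 was -0.41, against 3.17 with all cells. Sparcl1 is itself part of that sum, so this fall was partly set by the choice of cells. It made up 2551 of 3179 CPM in 25Q cell 20. Of the highest sums, 25Q cell 23 held 2942 CPM of Clu, 2146 CPM of Sparcl1 and 0 CPM of Gfap. Empty vector cell 1 held 260 CPM of Gfap and 34.7 CPM of Sparcl1. The differences of Aldoc, Clu and Slc1a3 ran from -4.11 to -1.63, 1.35 to 3.76 and -2.26 to -0.32 when 1 cell was left out. Oligodendrocyte lineage markers summed to a median of 136 CPM in 25Q and 104 CPM in empty vector neurons, microglia markers to 0.720 and 10.4 CPM, endothelial and mural markers to 59.2 and 24.1 CPM, fibroblast and meningeal markers to 49.3 and 39.1 CPM, and proliferation markers to 109 and 95.6 CPM. The part of these cell types in the differences of single genes was not tested.

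Indirect-pathway markers were found in some 25Q neurons and in no empty vector neuron beyond traces. Drd2 reached 121 CPM in 25Q cell 22, 75.5 CPM in cell 25 and 264 CPM in cell 26, and had 0 counts in all 9 empty vector neurons. With every cell thinned to 900000 counts, Drd2 was seen in 5 of 15 25Q neurons (33.3%, Clopper-Pearson 95% interval 11.8 to 61.6%) and in 0 of 9 empty vector neurons (0 to 33.6%). These intervals overlap, and they treat cells as independent, so they do not compare the constructs. Adora2a had 81 CPM in cell 22, 174 CPM in cell 26 and 12.6 CPM in cell 29, against at most 0.194 CPM in an empty vector neuron. Penk had 1054 CPM in cell 25 and 117 CPM in cell 29, against at most 5.05 CPM in an empty vector neuron. At least 10 CPM of 2 of these 3 genes were found in 4 of 15 25Q and 0 of 9 empty vector neurons, and no cell had all 3. The same 4 cells held 129.7 to 368.6 CPM of Foxp1 and 115.4 to 712.7 CPM of Rarb, both transcription factors of striatal projection neurons. Other projection neuron markers did not all follow. Pde10a had 226 to 662 CPM in cells 22, 25 and 26, against 0.899 CPM in cell 29. Ppp1r1b had 66 to 833 CPM in cells 22, 25 and 26, against 2.47 CPM in cell 29. Six3 had 0.444 CPM in cell 26 and 13.7 to 62.5 CPM in cells 22, 25 and 29. All 4 cells are from libraries 42 to 49, and Drd2, Adora2a and Penk had a thinned count in 0 of 14 astrocytes. Cells with at least 10 CPM of 2 of the 3 genes were also few elsewhere. They were 3 of 10 in 25Q of batch 1, 0 of 4 in 25Q of batch 2 and 0 of 15 in 97Q of batch 3. With the drug RGFP109 in batch 3 they were 1 of 11 in 25Q and 1 of 14 in 97Q.

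Direct-pathway markers were rare in both groups. Drd1 had 0, 0.157 and 179.7 CPM in 25Q neurons, against 0.153, 0.355 and 231 CPM in empty vector neurons, and at least 10 CPM were found in 4 of 15 25Q and 2 of 9 empty vector neurons. Tac1 and Pdyn had 0 counts in all 24 neurons, and 3 counts would correspond to 0.0436 CPM over all 25Q and 0.0701 CPM over all empty vector neurons. Ppp1r1b (DARPP-32), an integrator of dopamine signals, had 0, 0.786 and 833 CPM in 25Q neurons, against 0, 0.788 and 194 CPM in empty vector neurons. Its near-equal medians rest on single cells: the difference ran from -3.39 to 0.56 with 1 cell left out, the most negative values on leaving out empty vector cells 1, 2, 6, 7 or 9. It was -0.84 for libraries 15 to 21 and 3.33 for libraries 42 to 49, and centring on GC content brought it past 2-fold higher. Bcl11b (Ctip2), a transcription factor of the lineage, had 0, 32.6 and 241 CPM in 25Q neurons, against 0, 28.6 and 87.1 CPM in empty vector neurons. Foxp1 had 0, 41.3 and 369 CPM in 25Q neurons, against 0, 16.3 and 43.2 CPM in empty vector neurons, with a difference of 1.29 (-0.53 for libraries 15 to 21 and 2.32 for libraries 42 to 49). Pde10a, a striatal phosphodiesterase, had 0, 119.7 and 662 CPM in 25Q neurons, against 0, 55.1 and 319 CPM in empty vector neurons. The related Pde1b had 0, 12.7 and 506 CPM in 25Q neurons, against 0, 5.42 and 163 CPM in empty vector neurons. Its difference of 1.10 turned to values of -0.51 to -0.38 when any of empty vector cells 1, 3, 5, 7 or 9 was left out. For Pde10a the difference of 1.11 ran from 0.47 to 1.44 with 1 cell left out.

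Of the 32 striatal projection neuron markers, 19 had enough counts to be considered, which needed a mean of 5 CPM and a count in 50% of cells, both averaged over the 2 groups. Among them 13 were higher and 6 lower in 25Q, with a median difference of 0.21 (0.57 when centred on GC content), and that median was -0.20 for 25Q libraries 15 to 21 and 1.10 for 42 to 49. Past 2-fold, 5 were higher (13.5% of all genes considered were) and 1 was lower (25.7% of all genes). The lower one was Kcnip2, a partner of potassium channels, with 0, 7.23 and 149 CPM in 25Q neurons, against 0.532, 101 and 324 CPM in empty vector neurons and 25Q higher in 18.5% of pairs. Six3, a transcription factor of Drd2 neurons, had 0, 10.3 and 62.5 CPM in 25Q neurons, against 0, 1.24 and 49.3 CPM in empty vector neurons. Rarb had 0, 3.02 and 713 CPM in 25Q neurons, against 0, 0.777 and 53.2 CPM in empty vector neurons.

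**Figure D1:**
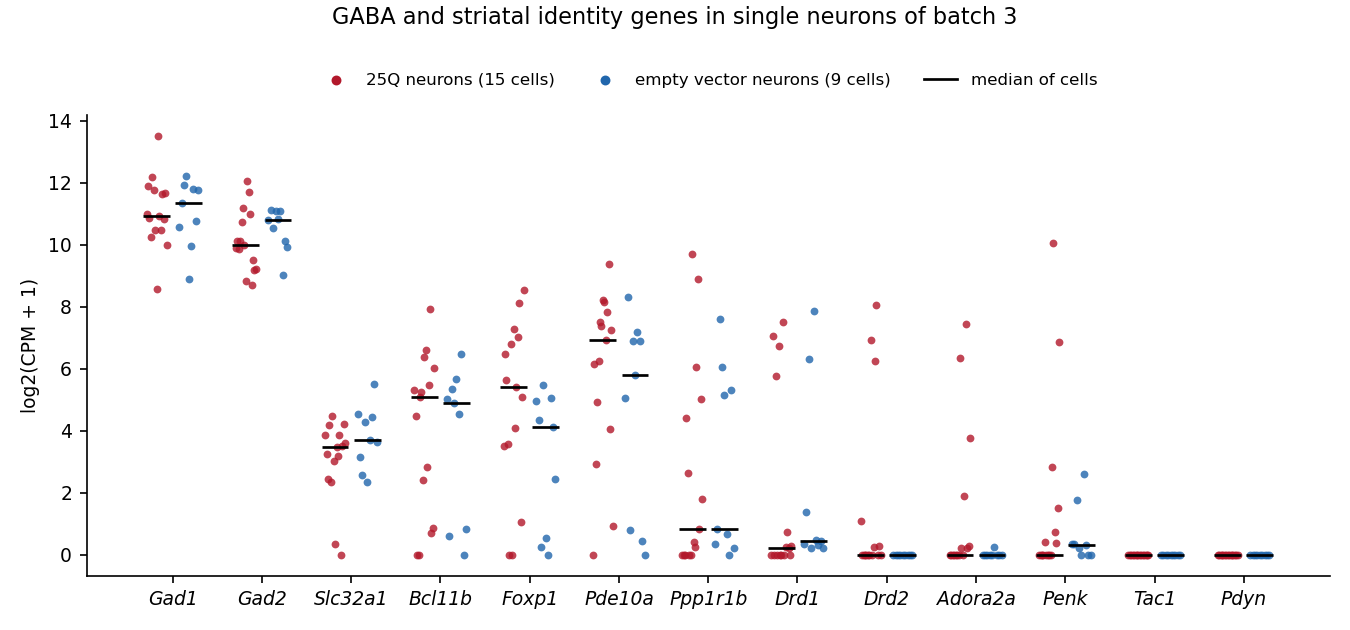
Levels of GABA and striatal identity genes, as log2(CPM + 1), in each of the 15 25Q neurons (red, left of each pair) and 9 empty vector neurons (blue, right); black lines are medians over cells. Gad1 and Gad2 are high in all 24 cells, Drd2 and Adora2a stand above the base line in a few 25Q neurons only, and Tac1 and Pdyn are at 0 throughout.

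Across the transcriptome, more genes were lower than higher in 25Q neurons. Of 10165 genes considered, out of 53465 in the table, 1369 (13.5%) were at least 2-fold higher and 2615 (25.7%) at least 2-fold lower in 25Q by the medians over cells, and the median difference over all genes was -0.10. Single neurons of 1 group differ widely, so a difference of medians was also read against the cell pairs. The 25Q cell was higher in at least 80% of pairs for 107 genes (1.05%) and in at most 20% for 620 genes (6.1%). Of these, 59 (0.58% of all genes) were also at least 2-fold higher and 575 (5.66% of all genes) at least 2-fold lower. In 5 genes every 25Q neuron lay below every empty vector neuron (0.0492%), and in 0 genes every 25Q neuron lay above. The median Pearson r between 2 cells, across genes, was 0.478 within 25Q, 0.477 within empty vector and 0.449 between them. The most similar of the other 23 cells had the same construct for 13 of 15 25Q and 7 of 9 empty vector neurons. With the 97Q neurons of batch 3, outside that search, the median r of 25Q neurons was 0.482, no lower than within 25Q. For empty vector neurons it was 0.443. After thinning, the median gene was seen in 80% of 25Q neurons and 88.9% of empty vector neurons. The share of cells was at least 50 points lower in 25Q for 117 genes and at least 50 points higher for 23.

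The 5 genes without overlap belong to axonal transport, membrane fusion, the synapse, mitochondria and the stress response. They are set out here because their cells did not overlap, which was known only from their values. Klc1 (ENSMUSG00000021288, GRCm38 chromosome 12, 111758849 to 111807844, plus strand), the light chain that links kinesin-1 to cargo, had 1.11, 48.8 and 143.1 CPM in 25Q neurons, against 143.2, 305 and 1503 CPM in empty vector neurons. The highest 25Q and the lowest empty vector neuron were thus almost level for Klc1. Syn1 (ENSMUSG00000037217, chromosome X, 20860511 to 20921004, minus strand), synapsin I, which tethers synaptic vesicles, had 0.225, 30.5 and 54.9 CPM in 25Q neurons, against 80.2, 118 and 731 CPM in empty vector neurons. Vti1b (ENSMUSG00000021124, chromosome 12, 79156017 to 79172667, minus strand), a SNARE protein of endosomal fusion, had 0.222, 47.3 and 163 CPM in 25Q neurons, against 174, 192 and 269.8 CPM in empty vector neurons. Its empty vector neurons lay in a narrow band while its 25Q neurons ran from near 0 upward. Mpc2 (ENSMUSG00000026568, chromosome 1, 165460637 to 165481214, plus strand), a subunit of the carrier that brings pyruvate into mitochondria, had 0.409, 27.3 and 107 CPM in 25Q neurons, against 109, 153 and 214 CPM in empty vector neurons. Sesn1 (ENSMUSG00000038332, chromosome 10, 41809935 to 41908424, plus strand), sestrin 1, a p53 target that restrains growth signalling, had 0, 5.40 and 60.6 CPM in 25Q neurons, against 85.4, 192 and 266 CPM in empty vector neurons. Sesn1 was seen in 11 of 15 25Q neurons (73.3%, Clopper-Pearson 95% interval 44.9 to 92.2%) and 9 of 9 empty vector neurons (66.4 to 100%) after thinning.

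The differences were -4.91 for Sesn1, -2.62 for Klc1, -2.44 for Mpc2, -2.0 for Vti1b and -1.92 for Syn1. Each was negative in both stretches of 25Q libraries, from -1.46 (Syn1, libraries 15 to 21) to -5.66 (Sesn1, libraries 15 to 21). Centred on genes of like GC content they were -4.79, -2.30, -2.47, -1.86 and -1.32 in the same order. Klc1, Syn1 and Vti1b each share exon sequence with 1 other annotated gene, as do 53 of the 148 genes described with at least 1 other. Whether the counting used strand is not known here, so values of such genes are uncertain.

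**Figure D2:**
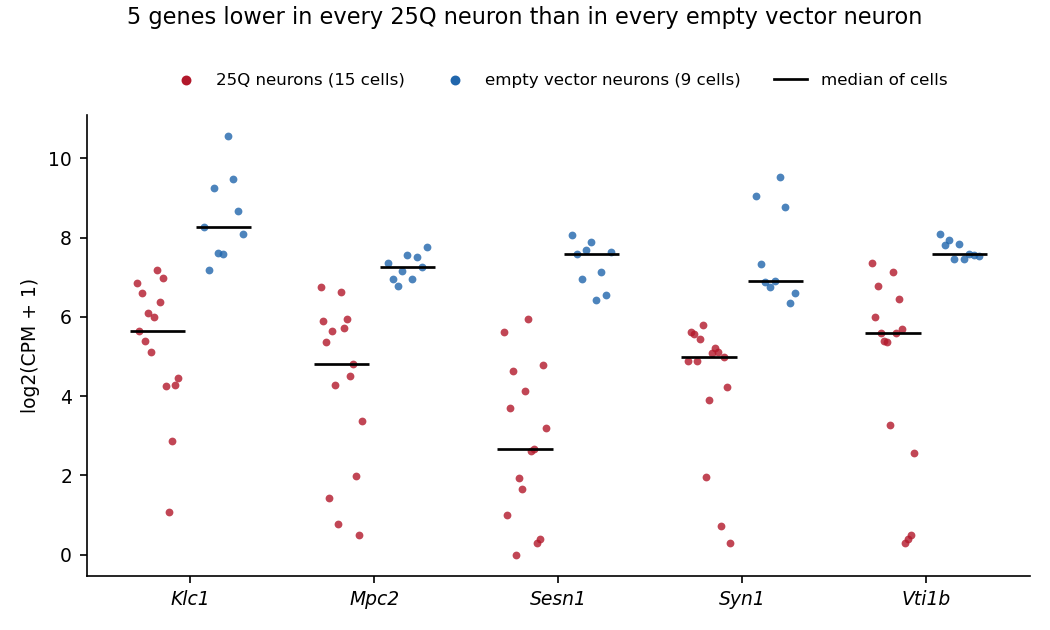
Levels, as log2(CPM + 1), of Klc1, Mpc2, Sesn1, Syn1 and Vti1b in each of the 15 25Q neurons (red, left of each pair) and 9 empty vector neurons (blue, right); black lines are medians over cells. Every red point lies below every blue point of its gene, by the smallest margin in Klc1, and the red points are spread over more of the axis than the blue ones.

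The RefSeq promoters of Syn1 and Sesn1 (GRCm38.p6, 250 bases before to 50 after the start of transcription, 5′ to 3′ on the strand of the gene) are shown as the starts of a synaptic gene and a p53 target gene that did not overlap. Capitals mark CG dinucleotides. Sesn1 has 2 listed starts, and only the first listed start of each gene was used here and in the counts of promoters below.
Syn1, chrX:20920869-20921168, minus strand: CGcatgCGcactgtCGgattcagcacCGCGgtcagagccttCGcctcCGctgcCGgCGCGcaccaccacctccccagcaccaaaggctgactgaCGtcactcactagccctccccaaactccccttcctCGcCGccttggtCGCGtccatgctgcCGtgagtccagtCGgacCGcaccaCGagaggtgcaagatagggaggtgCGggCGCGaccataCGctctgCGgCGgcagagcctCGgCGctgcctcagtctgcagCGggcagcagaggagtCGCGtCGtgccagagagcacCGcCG
Sesn1, chr10:41810324-41810623, plus strand: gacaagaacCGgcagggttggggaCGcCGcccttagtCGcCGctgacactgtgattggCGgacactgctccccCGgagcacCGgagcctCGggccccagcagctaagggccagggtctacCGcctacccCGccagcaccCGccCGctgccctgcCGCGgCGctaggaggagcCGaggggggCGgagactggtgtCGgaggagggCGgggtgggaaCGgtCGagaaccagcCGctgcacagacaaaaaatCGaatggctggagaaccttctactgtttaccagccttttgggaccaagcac
The Syn1 window holds 33 CG dinucleotides and no GGGCGG, the core of the Sp1 motif, on either strand. The Sesn1 window holds 24 and at least 1 GGGCGG. Promoters were matched for 429 of the 575 genes on the lower side, which had a median of 23 CG dinucleotides, with GGGCGG in 72% of them. For 43 of the 59 genes on the higher side these were 19 and 60.5%, and for 7695 of all genes considered 22 and 66.3%. A match of letters describes the window and shows no binding.

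Levels of the same 5 genes in the other neurons of the series were set beside these. In 10 25Q neurons of batch 1, which also received vehicle, the medians were 404 CPM for Klc1, 206 CPM for Syn1, 196 CPM for Vti1b, 149.6 CPM for Mpc2 and 62.3 CPM for Sesn1. In 15 neurons of batch 3 with the expanded 97Q-Htt they were 31.5, 19.8, 27.5, 7.71 and 9.32 CPM in the same order. For Klc1, Syn1, Vti1b and Mpc2 the 25Q medians of batch 1 were thus nearer to those of empty vector than of 25Q neurons in batch 3, whereas the 97Q medians of batch 3 lay below those of 25Q in batch 3.

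For the 575 genes on the lower side the same held. For the 59 on the higher side, 25Q neurons of batch 1 lay nearer to 25Q than to empty vector neurons of batch 3. The mean log2(CPM + 1) over the 575 genes on the lower side was 1.69, 3.25 and 4.87 in 25Q neurons, against 5.29, 5.70 and 6.20 in empty vector neurons, a gap set by the choice of genes. Other cells were not used in that choice. Their median was 4.92 in 25Q neurons of batch 1 (lowest 4.51, highest 5.76), 2.25 in 4 25Q neurons of batch 2, 2.87 in 97Q neurons of batch 3, 3.17 in 25Q and 3.50 in 97Q neurons of batch 3 with the HDAC inhibitor RGFP109. It was 2.54 in the astrocytes of batch 3. The lowest batch 1 25Q neuron lay above every astrocyte and above the median of each other group of batch 3 apart from empty vector. Over the 59 genes on the higher side the mean was 4.58, 5.52 and 5.77 in 25Q neurons, against 2.51, 3.31 and 4.00 in empty vector neurons. Here the medians of all other groups, from 4.12 (25Q, batch 2) to 4.88 (25Q, batch 1), lay above the highest empty vector neuron. Whether the empty vector libraries or the construct set these levels cannot be told apart, since no other batch held an empty vector neuron.

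**Figure D3:**
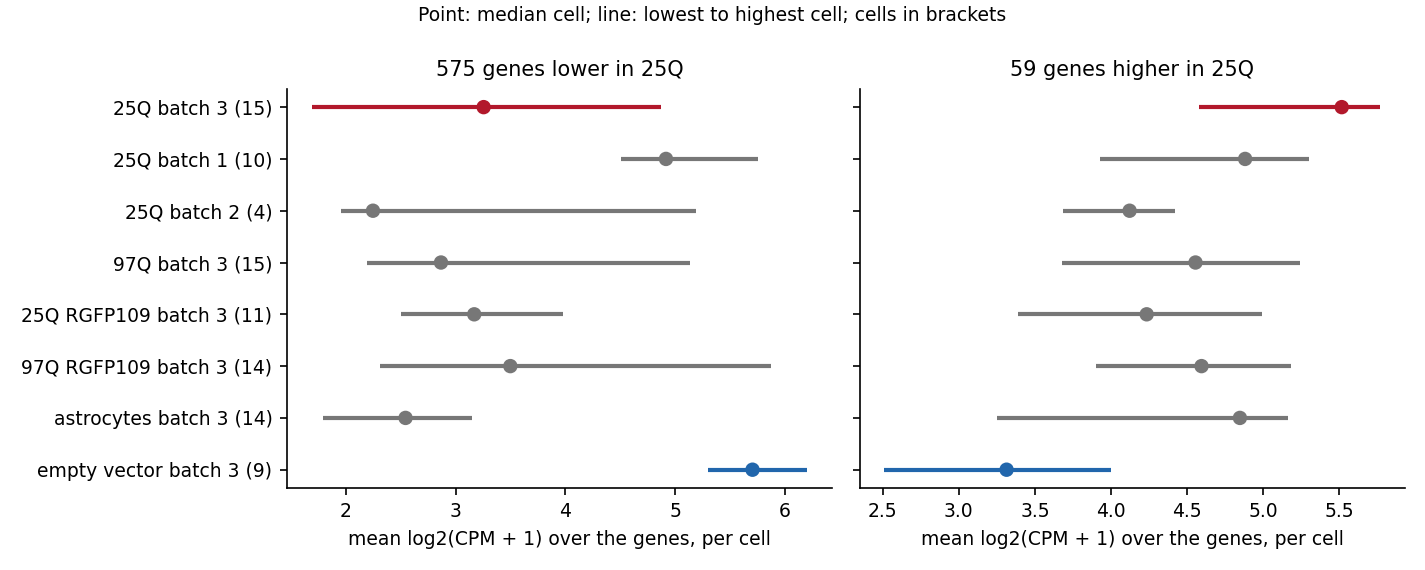
Mean log2(CPM + 1) per cell over the 575 genes on the lower side (left panel) and the 59 genes on the higher side (right panel) of 25Q against empty vector; points are the median cell, lines run from the lowest to the highest cell, and the number of cells is in brackets. Only the red and blue groups chose the genes. In the left panel 25Q of batch 1 is the grey group nearest to empty vector, and in the right panel empty vector is lowest.

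GC content moved with the differences over the whole transcriptome. In the GC-poorest 10% of genes 19.2% were at least 2-fold higher and 16.5% at least 2-fold lower in 25Q, with a median difference of 0.20. In the GC-richest 10% these were 7.78% and 45.5%, with a median of -0.84. Spearman's rho between difference and GC content over genes was -0.18, and between difference and transcript length 0.033. Median GC content was 52.8% for the 575 genes on the lower side, 44.8% for the 59 on the higher side and 48.5% for genes within 2-fold. With each gene centred on its GC bin, 1548 genes were at least 2-fold higher and 2363 at least 2-fold lower, so the surplus of lower genes was smaller. Of 143 named genes considered, centring moved 19 by over 1.5-fold and turned the sign of 2, Slc32a1 and Ppp1r1b. It took 3 (Olig1, Pgam1 and Sst) from past 2-fold to within it and 3 (Abat, Igfbp2 and Ppp1r1b) past 2-fold. Genes of the richest GC bin were shifted upward, and centred differences were -2.01 for Grin1, -1.70 for Ap2a1 and -1.32 for Atp5d, each described below with its uncentred value. The share of counts in the GC-richest 10% of genes was at or above that of the lowest empty vector neuron in 0 of 15 25Q neurons, in 9 of 40 other neurons of batch 3 and in 8 of 10 25Q neurons of batch 1. The part of base composition in the differences of single genes was not tested.

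**Figure D4:**
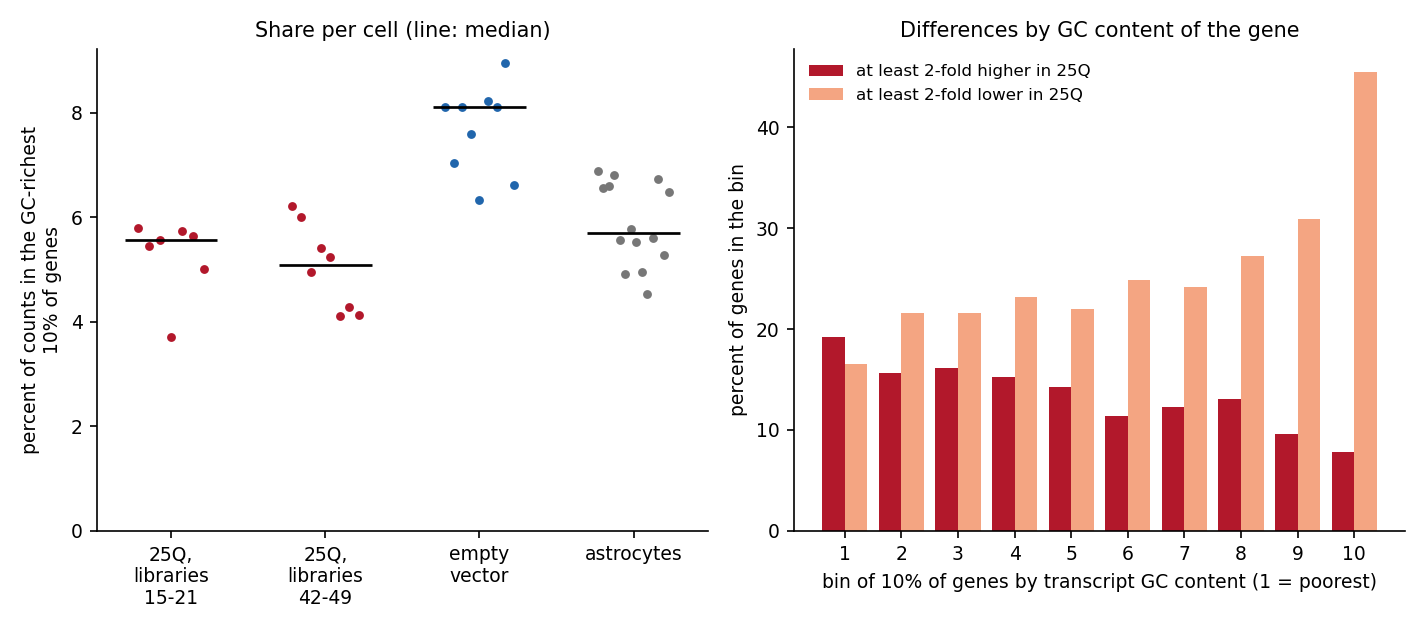
Left: percent of counts in the GC-richest 10% of genes in each cell, by group, with the median as a line; all 25Q neurons lie at 6.21% or less and all empty vector neurons at 6.33% or more, and astrocytes of batch 3 span both. Right: percent of the genes in each of 10 bins of GC content that were at least 2-fold higher (dark) or lower (light) in 25Q; the light bars are tallest in the richest bin, at 45.5%.

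By rule, the 10 genes with the most negative differences were taken from 473 that had a median of at least 20 CPM in the higher group, at least 80% of pairs in that direction and the same direction in both stretches of 25Q libraries. They were Synpr, Gpr4, Klhdc1, Bok, Med7, Ctu2, Tmem151a, Unc45a, Slc25a39 and Ash2l, with differences from -6.53 (Synpr) to -5.69 (Ash2l). Synpr, synaptoporin, a synaptic vesicle membrane protein, had 0, 0.386 and 589 CPM in 25Q neurons, against 1.32, 127 and 3190.4 CPM in empty vector neurons. At least 100 CPM of Synpr were found in 3 of 15 25Q and 5 of 9 empty vector neurons, so both groups held cells with much and cells with little of it. Tmem151a, a neuronal transmembrane protein, had 0, 3.53 and 74.5 CPM in 25Q neurons, against 13.5, 247 and 328 CPM in empty vector neurons, and the 25Q cell was higher in 2.22% of pairs. Ash2l, a subunit of the complexes that methylate histone H3 on lysine 4, had 0, 1.64 and 129 CPM in 25Q neurons, against 56, 134.6 and 278 CPM in empty vector neurons and 25Q higher in 5.19% of pairs. The groups barely overlapped for Tmem151a and Ash2l.

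Among the other genes of the 10, Med7, Ctu2 and Unc45a act in gene expression or protein folding. Med7, a subunit of the Mediator complex, had 0, 0.158 and 34 CPM in 25Q neurons, against 0, 66.5 and 103 CPM in empty vector neurons. Ctu2, which takes part in thiolation of transfer RNA, had 0, 0 and 73.4 CPM in 25Q neurons, against 0.263, 55.1 and 214 CPM in empty vector neurons. Unc45a, a chaperone of myosin, had 0, 0 and 119 CPM in 25Q neurons, against 0.263, 52.5 and 105 CPM in empty vector neurons. Slc25a39, a mitochondrial carrier needed for glutathione import, had 0, 0.887 and 92.8 CPM in 25Q neurons, against 8.22, 99 and 195 CPM in empty vector neurons. Its difference of -5.73 ran from -5.98 to -3.54 when 1 cell was left out, with the smallest size on leaving out 25Q cells 16, 17, 19, 21, 22, 26, 28 or 29. Bok, a relative of Bcl2, had 0, 0 and 40.2 CPM in 25Q neurons, against 0.177, 68.2 and 253 CPM in empty vector neurons. Gpr4, a proton-sensing receptor, had 0, 0 and 202 CPM in 25Q neurons, against 0.355, 72.2 and 417 CPM in empty vector neurons. Klhdc1 had 0, 0.899 and 148 CPM in 25Q neurons, against 0.710, 133 and 330.4 CPM in empty vector neurons. In 25Q neurons the medians of all 10 lay at 3.53 CPM or less, yet the highest 25Q cell reached 34 CPM or more in each.

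The 10 most positive differences came from 82 genes that met the same conditions on the higher side: Focad, Nek1, Ankrd28, Elp4, Fuom, Ubr7, Acad8, Nsmaf, Bcl10 and Igbp1. Focad, a focal adhesion protein, had 0, 132 and 193 CPM in 25Q neurons, against 0, 0.466 and 86.8 CPM in empty vector neurons, with 25Q higher in 80.7% of pairs. Nek1, a kinase of cilia and DNA repair, had 0, 98.4 and 317 CPM in 25Q neurons, against 0, 0.263 and 122 CPM in empty vector neurons, with 25Q higher in 82.6% of pairs. Ankrd28, a regulatory subunit of protein phosphatase 6, had 0, 82.2 and 339.5 CPM in 25Q neurons, against 0, 0.194 and 58.7 CPM in empty vector neurons. Elp4, of the Elongator complex that modifies transfer RNA, had 0.236, 50.3 and 168 CPM in 25Q neurons, against 0, 0.194 and 34.8 CPM in empty vector neurons and 25Q higher in 86.7% of pairs. Empty vector medians of all 10 genes lay at 0.532 CPM or less, while single empty vector cells reached 17.9 to 123 CPM.

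The remaining 6 on the higher side include enzymes and signalling proteins. Fuom, a fucose mutarotase, had 0, 38.4 and 271 CPM in 25Q neurons, against 0, 0 and 17.9 CPM in empty vector neurons, with 25Q higher in 87.8% of pairs. Ubr7, a ubiquitin ligase that acts on histone H2B, had 0.158, 36.3 and 222 CPM in 25Q neurons, against 0, 0 and 40.3 CPM in empty vector neurons, with 25Q higher in 87.4% of pairs. Acad8, a mitochondrial enzyme of valine breakdown, had 0, 31.5 and 134 CPM in 25Q neurons, against 0, 0 and 123 CPM in empty vector neurons. Its difference was 0.57 for libraries 15 to 21 and 5.35 for libraries 42 to 49. Bcl10, an adaptor of NF-kappaB signalling, had 0, 27.4 and 61.6 CPM in 25Q neurons, against 0, 0 and 26.3 CPM in empty vector neurons. Nsmaf, an adaptor of the TNF receptor, had 0, 29.5 and 132 CPM in 25Q neurons, against 0, 0 and 24.4 CPM in empty vector neurons. Igbp1, which binds protein phosphatase 2A catalytic subunits, had 0, 34.7 and 161 CPM in 25Q neurons, against 0, 0.532 and 40.3 CPM in empty vector neurons. With 1 cell left out the differences ran from 3.06 to 6.36 for Nek1, 2.93 to 5.55 for Elp4, 2.79 to 5.51 for Fuom and 3.65 to 6.55 for Focad, the smallest on leaving out empty vector cells.

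Lists of genes by pathway were set against all genes considered, of which 54.8% were lower and 45.2% higher in 25Q by any amount. Among lists with at least 7 genes considered, 11 of 25 had a larger share past 2-fold lower than all genes (25.7%) and 12 of 25 a larger share past 2-fold higher (13.5%). The medians of 14 of the 25 took both signs when 1 cell was left out, and centring on GC content turned the sign of 3, all near 0. The median lay farthest below 0 for huntingtin and its binding partners. Of its 26 genes 24 were considered: 20 were lower and 4 higher in 25Q, 13 past 2-fold lower and 1 past 2-fold higher, with a median difference of -1.27 (-1.05 for 25Q libraries 15 to 21, -2.02 for 42 to 49). Centred on GC content the median was -0.78. The 13 past 2-fold lower are 54.2% of the list, against 25.7% of all genes. Endogenous mouse Htt had 0.222, 6.83 and 72.7 CPM in 25Q neurons, against 1.28, 13 and 129 CPM in empty vector neurons, with 25Q higher in 33.3% of pairs. Its difference was -0.84, with 0.36 for libraries 15 to 21 and -1.85 for libraries 42 to 49. The groups overlapped widely for Htt.

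Among the partners, F8a, which encodes the huntingtin-associated protein HAP40, had 0, 0 and 10.1 CPM in 25Q neurons, against 0, 10.8 and 29.3 CPM in empty vector neurons, with 25Q higher in 13.3% of pairs. Sh3gl3, an endophilin that binds the proline-rich part of exon 1, had 0, 0.157 and 52.6 CPM in 25Q neurons, against 0, 9.08 and 41.4 CPM in empty vector neurons. Zdhhc13, a palmitoyl transferase that acts on huntingtin, had 0, 7.07 and 148 CPM in 25Q neurons, against 2.33, 68 and 79.8 CPM in empty vector neurons. Its difference of -3.10 ran from -3.24 to -1.20 with 1 cell left out, the smallest on leaving out 25Q cells 17, 19, 20, 25, 26, 27, 28 or 29. Optn, optineurin, an autophagy receptor, had 0, 0.204 and 80.2 CPM in 25Q neurons, against 0, 8.39 and 177 CPM in empty vector neurons. Of 6 members with 25Q higher in at most 20% of pairs (6.1% of all genes), Klc1 and F8a are described above, and 3 more were picked out for their values. Pacsin1, an endocytic protein, had medians of 40.7 CPM in 25Q and 113 CPM in empty vector neurons (5.93% of pairs), Rab11a, a recycling endosome GTPase, 132 CPM in 25Q and 353 CPM in empty vector neurons (9.63%), and Sp1, a transcription factor, 0 CPM in 25Q and 4.79 CPM in empty vector neurons (17%).

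Synaptic vesicle genes split into a lower and a level part. Of 34 genes 32 were considered, 17 lower and 15 higher, with a median of -0.16. Past 2-fold, 11 were lower (34.4%, against 25.7% of all genes) and 1 higher (3.12%, against 13.5%). In 8 of the 32 (25.0%) the 25Q cell was higher in at most 20% of pairs, against 6.1% of all genes. Bin1, amphiphysin 2, an endocytic protein, had 0, 7.07 and 104 CPM in 25Q neurons, against 4.76, 159 and 384 CPM in empty vector neurons. Rims1, an active zone scaffold, had 0.225, 10.8 and 209 CPM in 25Q neurons, against 5.76, 82.7 and 231 CPM in empty vector neurons. Ap2a1, a clathrin adaptor subunit, had 0.225, 33.8 and 185 CPM in 25Q neurons, against 98.9, 226 and 485 CPM in empty vector neurons, with 25Q higher in 3.70% of pairs. Cplx2, complexin 2, which clamps and promotes fusion, had 0, 2.25 and 80.2 CPM in 25Q neurons, against 1.40, 18.9 and 621 CPM in empty vector neurons. Picked out for their values, the vesicle GTPase Rab3a had medians of 227 CPM in 25Q and 1095 CPM in empty vector neurons (2.22% of pairs), the vesicle SNARE Vamp2 75.2 CPM in 25Q and 226 CPM in empty vector neurons (8.89%), and dynamin 1 (Dnm1), which pinches off endocytic vesicles, 41.8 CPM in 25Q and 92.1 CPM in empty vector neurons (7.41%). Snap25 and Syt1, the SNARE partner and the calcium sensor of release, differed by 0.03 and 0.15.

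Genes of the inhibitory synapse were past 2-fold lower about as often as all genes (25.7%), in 27.3% of the genes of GABA synthesis, packaging and uptake and 30.4% of the genes of GABA receptors and the inhibitory postsynapse. In the list of GABA synthesis, packaging and uptake 11 of 12 genes were considered, 8 lower and 3 higher, with 3 past 2-fold lower, 0 past 2-fold higher and a median of -0.41. The glial GABA transporter Slc6a11 (GAT3) had 0, 0 and 21.7 CPM in 25Q neurons, against 0.164, 3.05 and 48.5 CPM in empty vector neurons. The glutamine transporter Slc38a2 had 12.9, 47 and 386 CPM in 25Q neurons, against 55.1, 129 and 266 CPM in empty vector neurons. With 1 cell left out the difference of Slc38a2 ran from -1.56 to -0.93 and that of Slc6a11 from -3.12 to -1.46. All 23 genes of GABA receptors and the inhibitory postsynapse were considered, 15 lower and 8 higher. Past 2-fold, 7 were lower and 3 higher, with a median of -0.11. The GABA-A subunits Gabra3 and Gabrb2 were both lower by the medians. Gabra3 had 0, 0.807 and 235 CPM in 25Q neurons, against 0, 28.7 and 441 CPM in empty vector neurons. Gabrb2 had 0, 12.2 and 338 CPM in 25Q neurons, against 0, 81.2 and 302 CPM in empty vector neurons. The GABA-B partners Kctd16 and Kctd12 differed in opposite directions. Kctd16 had 0, 0 and 82.7 CPM in 25Q neurons, against 0, 18.1 and 61.4 CPM in empty vector neurons. Kctd12 had 0.157, 47.9 and 242 CPM in 25Q neurons, against 0, 2.63 and 363 CPM in empty vector neurons. The difference of Kctd12, 3.75, ran from 1.19 to 4.26 with 1 cell left out and was -0.70 from pooled counts. Gabbr1, the ligand-binding GABA-B subunit, was the 1 member of the list at or below 20% of pairs, with medians of 98.7 CPM in 25Q and 220.0 CPM in empty vector neurons (13.3%).

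Excitatory postsynaptic genes were 17 higher and 12 lower of 29 considered (32 listed), with a median of 0.08. Past 2-fold, 7 were higher (24.1%, against 13.5% of all genes) and 6 lower (20.7%, against 25.7%). Grin1, the subunit common to all NMDA receptors, had 0.818, 26.5 and 221 CPM in 25Q neurons, against 59.6, 221 and 419.7 CPM in empty vector neurons, with a difference of -3.01 and 25Q higher in 5.93% of pairs. Grin2a and Grin2b, its partners, differed by 0.18 and 0.13. Dlg1 (SAP97), a scaffold, had 0.444, 104 and 194 CPM in 25Q neurons, against 0, 20.1 and 105 CPM in empty vector neurons, with 25Q higher in 77.8% of pairs. The kainate subunit Grik2 had 0, 58.2 and 383 CPM in 25Q neurons, against 0.183, 13.5 and 164 CPM in empty vector neurons. Its difference of 2.03 ran from 0.61 to 2.49 with 1 cell left out, the smallest on leaving out an empty vector cell.

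Channel genes ranged widely from cell to cell in both groups. Of 40 sodium and potassium channel genes 32 were considered, 14 higher and 18 lower. Past 2-fold, 6 were higher and 15 lower, and 1 was at or below 20% of pairs, with a median of -0.34 that ran from -0.89 to 0.01 with 1 cell left out. The 15 are 46.9% of the list, against 25.7% of all genes, while the 1 at or below 20% of pairs is 3.12%, against 6.1%. The inward rectifier Kcnj3 had 0, 2.16 and 324 CPM in 25Q neurons, against 0.183, 116 and 502 CPM in empty vector neurons. The channel partner Kcnip1 had 0, 0.792 and 62.7 CPM in 25Q neurons, against 0, 57.3 and 280.3 CPM in empty vector neurons. The beta subunit Kcnab1 had 0, 89.7 and 699.9 CPM in 25Q neurons, against 0, 0.233 and 439 CPM in empty vector neurons. For Kcnab1 the difference was 0.69 for libraries 15 to 21 and 6.99 for libraries 42 to 49. Kcna2 had 0, 26.1 and 117 CPM in 25Q neurons, against 0, 0.698 and 224 CPM in empty vector neurons. Its difference of 4.0 was -0.45 for libraries 15 to 21 and 4.44 for libraries 42 to 49. Of 38 calcium channel, pump and buffer genes 33 were considered, 23 lower and 10 higher. Past 2-fold, 8 were lower and 4 higher, with a median of -0.53 that ran from -0.51 to -0.27 with 1 cell left out. The 8 are 24.2% of the list, close to the 25.7% of all genes, and the median gene had 25Q higher in 51.1% of pairs. The L-type channel Cacna1c had 0, 0.556 and 68.5 CPM in 25Q neurons, against 0.183, 26.2 and 99.2 CPM in empty vector neurons. Its subunit Cacnb1 had 0, 0.975 and 11.7 CPM in 25Q neurons, against 0.183, 16.2 and 64.6 CPM in empty vector neurons. The calcium sensor Hpcal1 had 0, 0.236 and 235 CPM in 25Q neurons, against 0, 40.5 and 237 CPM in empty vector neurons. The intracellular release channel Ryr2 had 0, 59 and 197 CPM in 25Q neurons, against 0, 8.87 and 84.4 CPM in empty vector neurons. Cacnb1 was 1 of 2 members at or below 20% of pairs (14.8%), and the difference of Ryr2 ran from 1.58 to 3.39 with 1 cell left out.

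Genes induced by activity were mostly lower in 25Q, with wide overlap. Of 23 immediate early genes 11 were considered, 10 lower and 1 higher. Past 2-fold, 5 were lower and 1 higher, with a median of -0.93 (-0.42 when centred on GC content) that ran from -1.54 to -0.54 with 1 cell left out. The 5 are 45.5% of the list, against 25.7% of all genes. Fos had 0, 2.22 and 428 CPM in 25Q neurons, against 0.388, 39.3 and 339.6 CPM in empty vector neurons, with 25Q higher in 39.3% of pairs. Egr1 had 0, 0.899 and 169 CPM in 25Q neurons, against 0, 11.7 and 233 CPM in empty vector neurons. Btg2 had 0, 0.899 and 81.6 CPM in 25Q neurons, against 0, 6.03 and 45.1 CPM in empty vector neurons. The cells of both groups spread over the whole range for these 3. The sign of Btg2 was not stable: 0.71 for libraries 15 to 21 and -2.13 for libraries 42 to 49. Homer1, whose short form is induced by activity, was the 1 higher, with 0, 57.3 and 814 CPM in 25Q neurons, against 0, 17.7 and 239 CPM in empty vector neurons. Arc, the 1 member at or below 20% of pairs and picked out for that, had medians of 0 CPM in 25Q and 0.903 CPM in empty vector neurons (8.15%).

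Of 16 neurotrophin and receptor genes 10 were considered, 7 lower and 3 higher. Past 2-fold, 4 were lower (40%, against 25.7% of all genes) and 2 higher (20%, against 13.5%). The median was -0.64 and ran from -2.57 to -0.48 with 1 cell left out. The neurotrophin Ntf3 had 0, 0.538 and 658 CPM in 25Q neurons, against 0.451, 168 and 601 CPM in empty vector neurons, with at least 100 CPM in 3 of 15 25Q and 5 of 9 empty vector neurons. The GDNF family receptor Gfra1 had at least 100 CPM in 4 of 15 25Q and 5 of 9 empty vector neurons, with 0, 1.35 and 634 CPM in 25Q neurons, against 0.710, 169 and 582.4 CPM in empty vector neurons. Gfra2 had at least 100 CPM in 5 of 15 25Q and 6 of 9 empty vector neurons, with 0, 1.88 and 531 CPM in 25Q neurons, against 0, 162 and 474 CPM in empty vector neurons. Both groups held cells above 100 CPM and cells below 1 CPM of each of these genes. Bdnf had too few counts to be considered, with at least 10 CPM in 3 of 15 25Q (highest 94.4 CPM) and 0 of 9 empty vector neurons (highest 0.280 CPM). Sorcs2, a sorting receptor that binds neurotrophin precursors, had 0, 0.720 and 157 CPM in 25Q neurons, against 0, 21.8 and 128 CPM in empty vector neurons.

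The lists of mitochondrial genes from the 2 genomes differed in uncentred medians but lay close together when centred on GC content. All 7 mitochondrially encoded genes considered (13 listed) were higher in 25Q, against 45.2% of all genes, and 0 were past 2-fold. Their median was 0.41 (0.20 when centred on GC content). The mt-Cytb subunit of complex III had 1508, 6791 and 15735 CPM in 25Q neurons, against 1548, 3783 and 12463 CPM in empty vector neurons, with 25Q higher in 68.1% of pairs. The mt-Co1 subunit of complex IV had 3549, 7026 and 12013 CPM in 25Q neurons, against 2479, 4869 and 11323 CPM in empty vector neurons. The share of counts in mitochondrial genes was 1.29, 3.45 and 7.00% in 25Q neurons, against 1.17, 2.28 and 6.42% in empty vector neurons. Of 63 nuclear genes of oxidative phosphorylation all were considered, 31 higher and 32 lower, with a median of -0.01 (0.17 when centred on GC content). Past 2-fold, 1 was higher and 5 were lower.

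Cyc1, Uqcrfs1, Cox5a and Atp5d, 4 of those 5 nuclear genes (7.94% of the list, against 25.7% of all genes), had differences of -4.82, -3.21, -4.40 and -2.32. Cyc1, cytochrome c1 of complex III, had 0, 11.7 and 235 CPM in 25Q neurons, against 139.7, 358 and 733 CPM in empty vector neurons. Uqcrfs1, the iron-sulfur subunit of complex III, had 0, 13.3 and 124 CPM in 25Q neurons, against 63.3, 132 and 493.2 CPM in empty vector neurons. Cox5a of complex IV had 0, 10.5 and 212 CPM in 25Q neurons, against 172, 241 and 407 CPM in empty vector neurons. Atp5d of the ATP synthase had 1.12, 69.8 and 321 CPM in 25Q neurons, against 245, 353 and 886 CPM in empty vector neurons. The 25Q cell was higher in 3.70%, 7.41%, 3.70% and 6.67% of pairs in that order, and the lowest empty vector neuron held 63.3 CPM or more of each. In 25Q neurons of batch 1 the medians were 244, 259.6, 244 and 269 CPM, and in 97Q neurons of batch 3 they were 26.2, 24.9, 13.8 and 27.6 CPM. Astrocytes of batch 3 had medians of 7.22, 14.7, 1.42 and 36.6 CPM.

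Fewer members than among all genes (25.7%) were past 2-fold lower in the lists of protein synthesis and turnover, with 5% of ribosomal and 9.09% of proteasome genes. Of 76 cytosolic ribosomal proteins 60 were considered, 29 higher and 31 lower, with 3 past 2-fold lower, 0 past 2-fold higher and a median of -0.05. Rps2 had 0.444, 2.86 and 30.1 CPM in 25Q neurons, against 7.79, 25 and 64.9 CPM in empty vector neurons, with 25Q higher in 5.93% of pairs, and Rpl12 and Rpl10a had medians of 3.09 CPM in 25Q and 14.2 CPM in empty vector neurons, and of 2.66 CPM in 25Q and 7.79 CPM in empty vector neurons. Counts of ribosomal genes can be shared with their pseudogenes, so these values are uncertain. Of 46 proteasome genes 44 were considered, 24 higher and 20 lower, with 4 past 2-fold lower, 1 past 2-fold higher and a median of 0.03. Psmd5, an assembly chaperone, had 0.204, 17.8 and 409.8 CPM in 25Q neurons, against 105, 292 and 428 CPM in empty vector neurons. Psmd3, a lid subunit, had 0.244, 15.4 and 125 CPM in 25Q neurons, against 73.1, 121 and 193 CPM in empty vector neurons. Psme3, the nuclear activator PA28 gamma, had 0, 6.44 and 125 CPM in 25Q neurons, against 0.451, 70.6 and 207 CPM in empty vector neurons. Psmg1, an assembly chaperone, had 0.444, 52.3 and 115 CPM in 25Q neurons, against 0, 17.3 and 89.3 CPM in empty vector neurons. Its difference of 1.54 ran from 0.88 to 2.42 with 1 cell left out.

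Of 42 heat shock proteins and chaperonins 38 were considered, 21 higher and 17 lower, with a median of 0.07. Past 2-fold, 3 were higher (7.89%, against 13.5% of all genes) and 10 lower (26.3%, against 25.7% of all genes). Dnajb1, an Hsp40 co-chaperone that acts on misfolded proteins, had 0.222, 9.90 and 95.1 CPM in 25Q neurons, against 56.9, 168 and 339.7 CPM in empty vector neurons, with 25Q higher in 2.96% of pairs. Bag2, a co-chaperone, had 0, 0.158 and 233 CPM in 25Q neurons, against 0, 49.9 and 97.6 CPM in empty vector neurons. Bag1, another co-chaperone, had 0, 2.23 and 20.3 CPM in 25Q neurons, against 0, 10.5 and 36.9 CPM in empty vector neurons. The heat shock factor Hsf2 had 0, 0.792 and 137 CPM in 25Q neurons, against 0.355, 6.21 and 103 CPM in empty vector neurons. Dnajb1 was nearly free of overlap, whereas Bag2, Bag1 and Hsf2 had cells at or near 0 in both groups. Of 36 autophagy and lysosome genes 35 were considered, 20 higher and 15 lower. Past 2-fold, 5 were higher (14.3%, against 13.5% of all genes) and 7 lower (20%, against 25.7%), with a median of 0.07. Atg16l1, which sites the lipidation of LC3, had 0, 3.14 and 40.4 CPM in 25Q neurons, against 4.06, 64.1 and 206 CPM in empty vector neurons. Atg3, the conjugating enzyme of that step, had 0, 3.72 and 58.5 CPM in 25Q neurons, against 1.28, 36.7 and 186 CPM in empty vector neurons. Sqstm1 (p62), an autophagy receptor picked out for its value, had medians of 251 CPM in 25Q and 1296 CPM in empty vector neurons (3.70% of pairs).

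Of 25 unfolded protein response genes 22 were considered, 12 lower and 10 higher. Past 2-fold, 5 were lower (22.7%, against 25.7% of all genes) and 3 higher (13.6%, against 13.5%), with a median of -0.10. Creld2, a secreted target of the response, had 0, 0 and 12 CPM in 25Q neurons, against 0.329, 26.4 and 77 CPM in empty vector neurons, with 25Q higher in 6.67% of pairs. The transcription factor Xbp1 had 0, 4.80 and 99.4 CPM in 25Q neurons, against 2.56, 25.4 and 124 CPM in empty vector neurons. The sensor Atf6 had 0, 23.4 and 257 CPM in 25Q neurons, against 0, 4.79 and 54.4 CPM in empty vector neurons. The chaperone Hyou1 had 0, 11.7 and 211 CPM in 25Q neurons, against 0, 0.560 and 48 CPM in empty vector neurons. Of 25 DNA damage and p53 target genes 16 were considered, 9 higher and 7 lower. Past 2-fold, 4 were higher (25%, against 13.5% of all genes) and 3 lower (18.8%, against 25.7%), with a median of 0.11. Beside Sesn1, the damage kinase Atm had 0, 4.27 and 262 CPM in 25Q neurons, against 0, 0 and 11.8 CPM in empty vector neurons. The kinase Atr had 0.236, 7.72 and 284 CPM in 25Q neurons, against 0, 1.68 and 64.6 CPM in empty vector neurons. Its difference of 1.70 ran from 0.58 to 2.17 with 1 cell left out. The repair protein Xrcc5 had 0, 1.78 and 87.5 CPM in 25Q neurons, against 0, 6.72 and 93 CPM in empty vector neurons, with a range of -3.35 to -0.69.

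Of 26 oxidative stress and Nrf2 target genes 22 were considered, 13 higher and 9 lower. Past 2-fold, 4 were higher (18.2%, against 13.5% of all genes) and 2 lower (9.09%, against 25.7%), with a median of 0.15. Txnrd1, thioredoxin reductase, had 0.613, 13.9 and 179 CPM in 25Q neurons, against 15.8, 72.5 and 292 CPM in empty vector neurons. Srxn1, sulfiredoxin, had 0, 22.8 and 149.7 CPM in 25Q neurons, against 0.451, 102 and 272 CPM in empty vector neurons. The metallothionein Mt1 had 2.31, 283 and 1216 CPM in 25Q neurons, against 9.90, 57.3 and 1556 CPM in empty vector neurons. The difference of Mt1, 2.28, ran from 1.21 to 2.39 with 1 cell left out. The regulator Nfe2l2 (Nrf2) had 0, 3.47 and 58.4 CPM in 25Q neurons, against 0, 0.451 and 42.8 CPM in empty vector neurons. Its difference was 3.58 for libraries 15 to 21 and -0.29 for libraries 42 to 49. Of 34 interferon and innate immune genes 14 were considered, 10 higher and 4 lower. Past 2-fold, 2 were higher (14.3%, against 13.5% of all genes) and 1 lower (7.14%, against 25.7%), with a median of 0.30. Irf9 had 0, 35.8 and 273 CPM in 25Q neurons, against 0.164, 6.57 and 332 CPM in empty vector neurons. The peptide transporter Tap1 had 0, 3.12 and 106 CPM in 25Q neurons, against 0, 0 and 8.40 CPM in empty vector neurons. The class I gene H2-K1 had 0, 0.269 and 126 CPM in 25Q neurons, against 0, 28.7 and 199.6 CPM in empty vector neurons. Class I genes share sequence, so the value of H2-K1 is uncertain.

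Of 25 cholesterol synthesis genes 24 were considered, 14 lower and 10 higher. Past 2-fold, 7 were lower (29.2%, against 25.7% of all genes) and 5 higher (20.8%, against 13.5%), with a median of -0.23. Mvd, of the mevalonate steps, had 0, 0.892 and 168 CPM in 25Q neurons, against 0, 39.2 and 385 CPM in empty vector neurons. Mvk, of the same steps, had 0, 2.90 and 63.2 CPM in 25Q neurons, against 0.183, 31.1 and 152 CPM in empty vector neurons. Hsd17b7 had 0, 1.58 and 197 CPM in 25Q neurons, against 0, 44.8 and 187 CPM in empty vector neurons, with a difference of -4.15 that ran from -4.37 to -1.06 with 1 cell left out, the smallest on leaving out 25Q cells. Ebp, a sterol isomerase, had 0, 57.1 and 194 CPM in 25Q neurons, against 0, 13.7 and 65 CPM in empty vector neurons. Of 19 glycolysis genes all were considered, 11 higher and 8 lower. Past 2-fold, 0 were higher (against 13.5% of all genes) and 2 lower (10.5%, against 25.7%), with a median of 0.04. Of the lower ones, Pgam1 came within 2-fold when centred on GC content. Pgam1 had 0.222, 10.2 and 30.6 CPM in 25Q neurons, against 18.1, 23.5 and 37.5 CPM in empty vector neurons, with 25Q higher in 15.6% of pairs. Tpi1 had 127, 894 and 1514 CPM in 25Q neurons, against 235, 550.2 and 1716 CPM in empty vector neurons. The neuronal glucose transporter Slc2a3 had 27.3, 186 and 782 CPM in 25Q neurons, against 0.549, 110.3 and 588 CPM in empty vector neurons.

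Of 23 histone deacetylases and acetyltransferases 22 were considered, 10 higher and 12 lower. Past 2-fold, 3 were higher (13.6%, against 13.5% of all genes) and 6 lower (27.3%, against 25.7%), with a median of -0.12. Hdac1 had 0, 22.5 and 48.6 CPM in 25Q neurons, against 9.16, 32.8 and 52 CPM in empty vector neurons. Hdac3 had 11.9, 202 and 430.2 CPM in 25Q neurons, against 52.4, 193 and 299.6 CPM in empty vector neurons. The groups overlapped for both targets of the drug used elsewhere in the study. Hdac9 had 0.225, 12.2 and 549 CPM in 25Q neurons, against 0.388, 74.2 and 506 CPM in empty vector neurons. The acetyltransferase Kat2a had 0, 23.9 and 94 CPM in 25Q neurons, against 0.280, 88.7 and 285 CPM in empty vector neurons. Kat6a had 0, 27.8 and 195 CPM in 25Q neurons, against 0, 5.04 and 79.8 CPM in empty vector neurons. Ep300 (p300) had 0.244, 52.7 and 376 CPM in 25Q neurons, against 0.388, 7.63 and 141 CPM in empty vector neurons. The difference of Ep300, 2.64, ran from 1.66 to 3.37 with 1 cell left out.

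All 18 pan-neuronal markers were considered, 10 higher and 8 lower. Past 2-fold, 1 was higher (5.56%, against 13.5% of all genes) and 3 lower (16.7%, against 25.7%), with a median of 0.04. Beside Syn1, the neurofilament subunits Nefm and Nefl were lower past 2-fold. Nefm had 0, 6.76 and 114 CPM in 25Q neurons, against 16, 70.1 and 191 CPM in empty vector neurons, with 25Q higher in 13.3% of pairs. Nefl had 0.336, 49.7 and 182 CPM in 25Q neurons, against 6.99, 203 and 482 CPM in empty vector neurons, with 25Q higher in 18.5% of pairs. Rbfox3 (NeuN) had 0.786, 34.5 and 128 CPM in 25Q neurons, against 0.263, 10.4 and 44.8 CPM in empty vector neurons. Its difference of 1.64 ran from 0.89 to 2.07 with 1 cell left out, the smallest on leaving out empty vector cells 2, 3, 7 or 9.

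**Figure D5:**
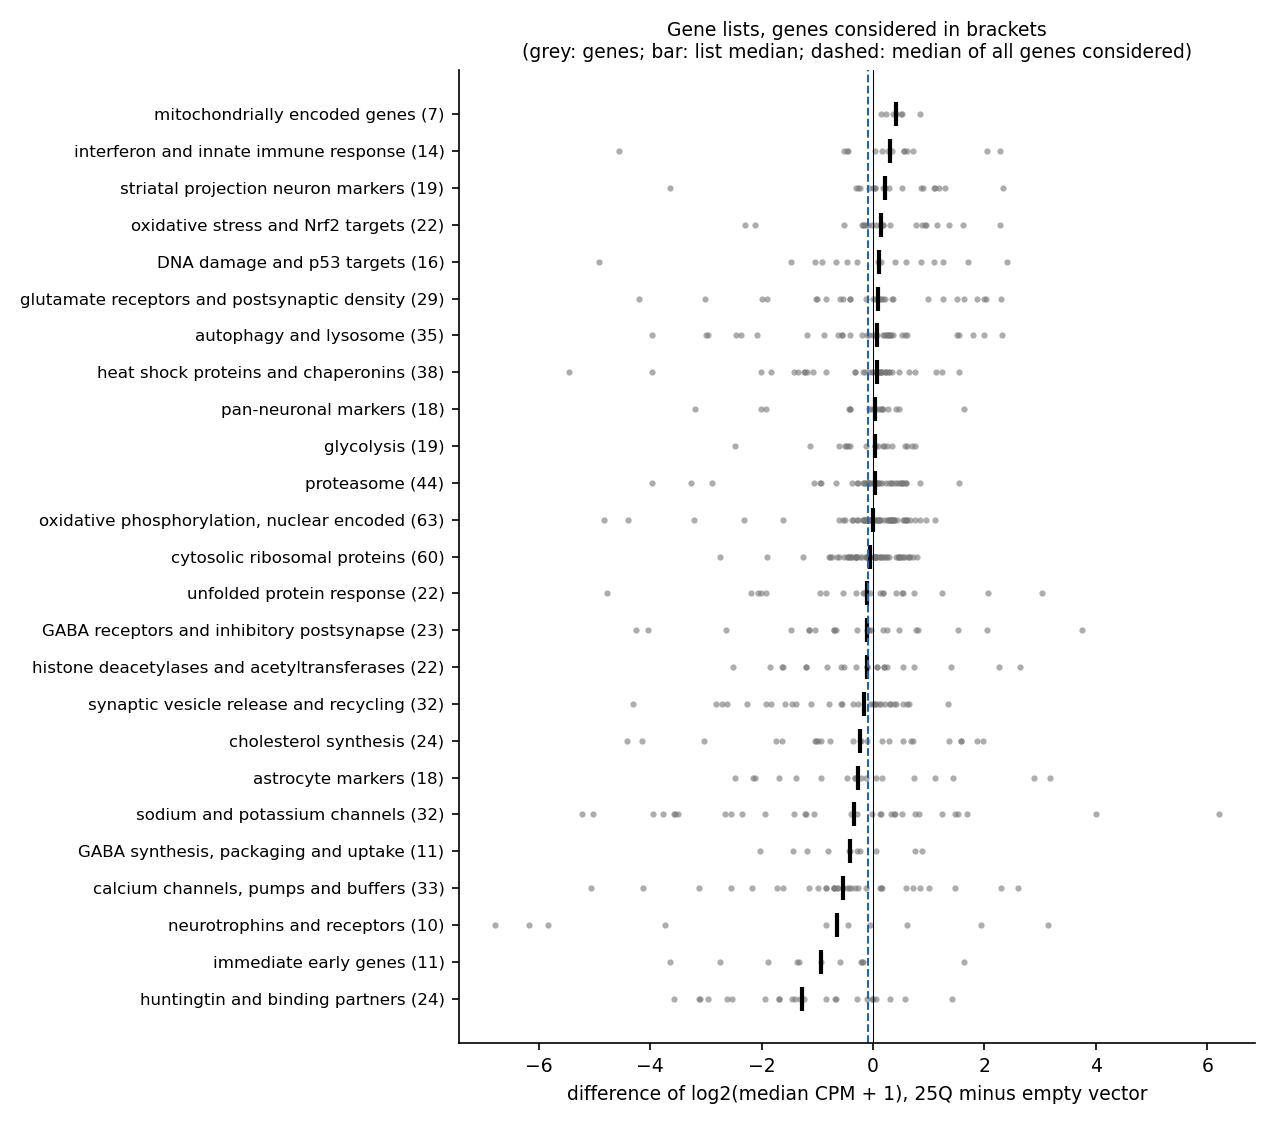
Difference of log2(median CPM + 1), 25Q minus empty vector, for each gene considered (grey points) in the lists with at least 7 such genes, sorted by the list median (black bars); the dashed line is the median of all genes considered, -0.10. Huntingtin and its partners lie lowest (-1.27) and mitochondrially encoded genes highest (0.41), and most other lists have medians near 0 with a few genes far to the left.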

How the data were processed

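RNA of single neurons was read after whole-cell recording, with full-length cDNA made by SMARTer chemistry and libraries by Nextera XT, per the labels' protocols. The authors deposited 1 table of raw counts of reads per Ensembl gene, with 1 column per cell and no normalization. Per the submitters' processing notes, the tools included STAR 2.5 and HTSeq 0.9.1 as well as Trimmomatic 0.36 and FastQC, with builds named as mm10 and GRCm38. The tools' settings, the annotation release and the use of strand in counting were not given in the sources used here. No molecular identifiers are named. The intervals on shares of cells treat cells as independent draws and do not cover differences between animals or cultures. Of 53465 gene identifiers 53274 were matched to a symbol. Positions, transcript lengths and GC content were taken from GENCODE release M21 (GRCm38), and promoter sequences from RefSeq (GRCm38.p6).

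Counts were divided by the total of each cell to give CPM, with no filter on cells and no doublet caller, since each cell was taken by pipette. The series text counts 117 neurons, of which 113 were held here. Genes were considered with at least 5 mean CPM and at least 50% of cells with a count, each averaged over the 25Q and the empty vector group. Per gene, log2(median CPM + 1) was compared, with the share of the cell pairs in which the 25Q cell was higher (ties counted as 0.5). No test was made, because each group is 1 sample, and a gene is called past 2-fold by size alone. Shares of cells were taken after thinning each cell to 900000 counts, with exact Clopper-Pearson 95% intervals. The computation was tested on simulated data. Effective library sizes of edgeR 4.0.16 and size factors of DESeq2 1.42.0 (R 4.3.3) were alternatives to total counts, as were other pseudocounts, filters, summaries over cells and choices of cells. Main results were computed in Python 3.11.15 with pandas 2.3.3 and scipy 1.17.1.

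Named genes are the 10 largest differences in each direction under the conditions given with them, 20 genes of GABA, striatal and disease biology whatever their values, and up to 4 members of each list with the largest differences. A few genes that these rules name are not reported here. Others are marked as chosen after their values were seen. The cells, the 32 gene lists and these rules were chosen with earlier results of these data known.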

Additional observations from a re-analysis of the deposited data

Results flagged for a closer look

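In each set of 9 empty vector neurons it was asked whether the highest or lowest cell lay far from the nearest other cell, by Dixon's ratio at the 95% level. Of 162 sets 14 were picked out. Chance alone picks out about 1 in 20 only where values are normally distributed. Single genes here often split into cells with few counts and cells with many, and many were named for their large differences. The rate of 1 in 20 therefore cannot be applied, and whether 14 is more than chance was not tested. The 15 25Q neurons were not examined in this way, because the rule covers at most 10 cells. All values are log2(CPM + 1).

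A single high cell stood out for Acad8 at 6.96 (nearest cell 0.356), Atm at 3.67 (nearest 0.538), Fn1 at 6.01 (nearest 2.97) and Slc1a3 at 7.72 (nearest 3.86). A single low cell stood out for Kat2a at 0.356 (nearest 4.83), Kcnj3 at 0.242 (nearest 5.08), Klhdc1 at 0.774 (nearest 4.76), Psme3 at 0.538 (nearest 4.42), Rpl5 at 0.838 (nearest 4.94), Atg16l1 at 2.34 (nearest 5.03), Tmem151a at 3.86 (nearest 6.53) and Zdhhc13 at 1.73 (nearest 5.54). Among summed marker lists, 1 empty vector neuron was high in excitatory neuron markers at 1.21 (nearest 0.538), a level near that of single counts, and 1 in proliferation markers at 10.1 (nearest 7.31).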

How the results depend on the processing

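No paired analysis was possible because each group is 1 sample and the numbers in the labels only name cells. Against 1369 genes at least 2-fold higher and 2615 at least 2-fold lower in 25Q, a pseudocount of 10 CPM gave 691 and 1598, a filter of 20 mean CPM and 75% of cells gave 847 and 1626, and pooled counts gave 1081 and 1670. The first shrinks low genes by construction and the second tests fewer genes; for the third the cause was not tested. Under edgeR's effective library sizes, DESeq2's size factors, a pseudocount of 0.1 CPM, no filter, means over cells, thinned cells, either stretch of 25Q libraries, the removal of cells rich in astrocyte markers and GC centring (chosen after seeing the data), each count stayed within 1.5 times. Leaving out 1 of the 24 cells gave 1153 to 1600 higher and 2360 to 2939 lower genes, with a median difference of -0.18 to -0.04.

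Over all alternatives other than single cells left out, 394 of 399 list medians and 1471 of 1623 gene differences moved by less than the spread between cells, and among those past 2-fold 0 list medians and 15 gene differences took the opposite sign, of which Aldoc alone was then past 2-fold. Pooled counts gave 0.24 for Btg2, -0.37 for Kcna2, -0.70 for Kctd12 and 0.88 for Slc1a3. With 25Q libraries 15 to 21 alone the differences were 0.71 for Btg2, -0.53 for Foxp1, -0.45 for Kcna2, 0.34 for Olig1, -0.83 for Rarb and 0.92 for Slc1a3, and with 42 to 49 alone 1.46 for Aldoc and -0.29 for Nfe2l2. Without cells rich in astrocyte markers they were 0.64 for Btg2, -0.14 for Kcna2 and -0.41 for Sparcl1. Sparcl1 is itself among the markers that chose those cells. Leaving out 1 cell moved Pde1b between -0.51 and 2.13. The cause of these changes was not tested. Depth limits genes near 1 count per cell, and 15 and 9 cells limit every share.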

Other observations

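Single neurons of both constructs also differed in interneuron genes. Sst, the peptide of a class of striatal interneurons, had 0, 3.07 and 349 CPM in 25Q neurons, against 0, 8.40 and 432 CPM in empty vector neurons (lowest, median and highest), and at least 100 CPM were found in 1 of 15 25Q and 1 of 9 empty vector neurons. Calb2 (calretinin), a calcium buffer of another class, had 0, 0.538 and 122 CPM in 25Q neurons, against 0.466, 3.36 and 1863 CPM in empty vector neurons, with at least 100 CPM in 2 of 15 25Q and 2 of 9 empty vector neurons. Npy, a peptide often found with Sst, reached 100 CPM in 1 of 15 25Q and 0 of 9 empty vector neurons. The highest Sst neuron with 25Q, cell 27, held 1808 CPM of Gad1 and 0 CPM of Drd2. The highest with empty vector, cell 3, held 3917 CPM of Gad1 and also 194 CPM of Ppp1r1b and 3190.4 CPM of Synpr. The highest Calb2 neuron was empty vector cell 2, with 2606 CPM of Gad1.

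The 12 proliferation markers summed to 33.6, 109 and 301 CPM in 25Q neurons, against 21.7, 95.6 and 1117 CPM in empty vector neurons, and at most 617 CPM in an astrocyte. Empty vector cell 1 held the highest sum, and it also held the highest sum of astrocyte markers among these neurons (6016 CPM). Pcna had 0, 28.8 and 62 CPM in 25Q neurons, against 7.24, 29.4 and 51.5 CPM in empty vector neurons, and Ccna2 had 0.503, 37.9 and 111 CPM in 25Q neurons, against 0.582, 25.2 and 124 CPM in empty vector neurons. Markers of oligodendrocytes were seen in single cells of both groups: Mbp had 0, 45.6 and 208 CPM in 25Q neurons, against 0.153, 41.4 and 288 CPM in empty vector neurons, and Cnp had 23.1, 52.6 and 202 CPM in 25Q neurons, against 16.9, 38.4 and 95.4 CPM in empty vector neurons. Of the mural genes, Acta2 had 0.225, 9.75 and 261 CPM in 25Q neurons, against 0.388, 14 and 458 CPM in empty vector neurons, and Tagln had 0, 20.00 and 309 CPM in 25Q neurons, against 0.194, 19.7 and 362 CPM in empty vector neurons. The microglial receptor Csf1r had 0, 0 and 26.3 CPM in 25Q neurons, against 0, 0.305 and 28.8 CPM in empty vector neurons. The groups overlapped in each of these genes.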
